A study of Homo sapiens with 12 samples.

Results

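The miR-200 family was described in small RNA libraries from MV4-11 and Molm-14, 2 human cell lines of acute myeloid leukemia (AML) with an internal tandem duplication in FLT3. Its members here are 6 mature miRNA arms, of 1204 mature miRNAs counted in the series. They are hsa-miR-200b-3p, hsa-miR-200a-3p, hsa-miR-200a-5p and hsa-miR-429, made from a cluster of hairpins on chromosome 1, and hsa-miR-200c-3p and hsa-miR-141-3p, made from a cluster on chromosome 12. They were selected by family name, with their counts in all 12 libraries already known, and the contrasts below between cell lines and genotypes are on those same counts. The fold changes, SEs and edgeR adjusted p-values are therefore descriptions of where these arms lie in the whole table and not independent tests of the family.

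Each cell line was studied in 2 genotypes, with 3 libraries in each of the 4 groups. In the MPC1 KO cells, MPC1 had been deleted with CRISPR/Cas9 from a lentiviral vector carrying 1 guide RNA and a GFP marker, and the controls (EV) carried the nontargeting Empty Vector. The MPC1 protein is a component of the carrier that brings pyruvate into mitochondria. All cells were human, carried the same FLT3 mutation type and were grown in culture, and no drug or dose distinguishes the groups. The sources used here do not say whether the edited cells were a clone or a pool, nor whether replicate libraries were grown as separate cultures, so p-values measure the spread between these libraries, which may be technical. Small RNA libraries do not measure MPC1 mRNA, so the deletion itself could not be checked in these counts.

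A miRNA is cut from a hairpin precursor that yields a 5p and a 3p arm, and the loaded arm guides silencing of mRNAs that pair with its seed, bases 2 to 8. The miR-200 family is best known from epithelial cells, where it silences ZEB1 and ZEB2, transcription factors that repress epithelial genes. ZEB1 and ZEB2 in turn bind E-box sequences in the promoters of both miR-200 clusters and repress them, a double-negative loop that is a textbook switch between epithelial and mesenchymal states. Blood cells are not epithelial, and in most of them the family is scarce next to miRNAs such as miR-142 and miR-223.

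The mature sequences of the 6 arms are shown because the family divides in different ways by seed and by genome position. They are given 5′ to 3′ from RefSeq (GRCh38.p14), with the seed in capitals.
hsa-miR-200b-3p: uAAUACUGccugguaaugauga
hsa-miR-429: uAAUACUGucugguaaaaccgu
hsa-miR-200c-3p: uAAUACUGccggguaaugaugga
hsa-miR-200a-3p: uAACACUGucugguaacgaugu
hsa-miR-141-3p: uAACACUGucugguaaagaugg
hsa-miR-200a-5p: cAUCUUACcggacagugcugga

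The 3p arms fall into 2 seed groups, AAUACUG (miR-200b-3p, miR-429 and miR-200c-3p) and AACACUG (miR-200a-3p and miR-141-3p). The seeds differ by the single base U4C, written with the base of miR-200b-3p first and counted from the 5′ end. Each seed group has members on both chromosomes, so a cell that uses one cluster more than the other still makes both seeds. miR-200b-3p and miR-200c-3p differ at 2 of their first 22 bases (U11G and A22G), as do miR-200a-3p and miR-141-3p (C17A and U22G). The counting of reads with matches to more than 1 miRNA is not given in the sources used here, and a part of such reads in the levels of these near-identical pairs was not tested. miR-200a-5p, from the opposite strand of the miR-200a hairpin, carries an unrelated seed, AUCUUAC.

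On chromosome 1 of GRCh38, the hairpins MIR200B (chr1:1167104-1167198), MIR200A (chr1:1167863-1167952) and MIR429 (chr1:1169005-1169087) lie on the plus strand within 1984 bases. All 3 are inside the noncoding host gene MIR200BHG in RefSeq (chr1:1162877-1170338). On chromosome 12, MIR200C (chr12:6963699-6963766) and MIR141 (chr12:6964097-6964191) lie on the plus strand within 493 bases, in an intron of the noncoding host gene MIR200CHG in GENCODE v44 (chr12:6963226-6964447).

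The promoter regions of both host genes are shown because arms of a cluster share a host transcript and the comparisons below are between clusters. Each runs from 250 bases before to 50 bases from the start of the host gene on the plus strand, 300 bases in all, from RefSeq (GRCh38.p14). The RefSeq starts are base 1162877 for MIR200BHG and base 6963245 for MIR200CHG, the latter downstream of the GENCODE start given above. Capitals mark CACCTG, the E-box form to which ZEB1 and ZEB2 bind.
MIR200BHG, chr1:1162627-1162926: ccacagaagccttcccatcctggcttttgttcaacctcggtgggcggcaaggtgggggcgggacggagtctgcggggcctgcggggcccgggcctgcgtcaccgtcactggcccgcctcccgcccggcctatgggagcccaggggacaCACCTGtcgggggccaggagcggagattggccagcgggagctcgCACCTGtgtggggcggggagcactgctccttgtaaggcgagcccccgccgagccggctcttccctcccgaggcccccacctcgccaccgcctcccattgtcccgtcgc
MIR200CHG, chr12:6962995-6963294: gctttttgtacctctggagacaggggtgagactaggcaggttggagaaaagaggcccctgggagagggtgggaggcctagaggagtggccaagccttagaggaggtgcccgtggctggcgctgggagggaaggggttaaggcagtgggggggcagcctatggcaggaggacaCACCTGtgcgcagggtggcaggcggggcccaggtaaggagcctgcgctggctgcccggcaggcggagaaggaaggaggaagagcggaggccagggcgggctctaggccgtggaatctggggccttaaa

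The MIR200BHG region held CACCTG at 102 and 58 bases before the start, and the MIR200CHG region held it at 78 bases before the start. Searched as CACCTG or its reverse complement CAGGTG, which is the same motif on the other strand, the motif was present in 20.6% of 35116 promoter regions of this length, and 3.49% held it at least 2 times. These matches describe the letters of the reference genome. Binding was not measured in this series.

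The libraries held 3870104 to 8683456 miRNA counts each, and MV4-11 EV replicate 1 was the deepest. Levels are given as CPM, the count scaled to a common library size after adjustment of the library total by TMM, which assumes most miRNAs are alike between libraries. A floor of 3 counts, the most that a count of 0 allows, corresponded to 0.345 to 0.775 CPM over the libraries. The haematopoietic markers, among them miR-142-3p and miR-223-3p, summed to 70014 to 106129 CPM in the 12 libraries, and 6 of 6 passed the filter on low counts. Between the EV libraries of the lines 2 of them were higher and 3 lower in Molm-14 (edgeR), where 61.9% of all miRNAs tested were called in either direction. The calls of MPC1 KO against EV were 1 higher (miR-155-5p) and 1 lower (miR-146a-5p), both in Molm-14, where 6.83% of all miRNAs were called. The epithelial cell markers were uneven, with miR-205-5p, miR-203a-3p and miR-375 at 0 to 2, 1 to 9 and 0 to 8 counts per library and miR-192-5p and miR-194-5p well above them, at 335 and 13.03 CPM in MV4-11 EV.

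The 6 arms together made up a small part of the miRNA counts, 369.9 ± 25.6 CPM for EV and 446.4 ± 23.5 CPM for MPC1 KO in MV4-11, and 145.1 ± 11.5 CPM for EV and 164.7 ± 5.57 CPM for MPC1 KO in Molm-14 (mean ± SD, n = 3 each). All 6 passed the filter, which kept 659 of the 1204 miRNAs, and their ranks by mean level ran from 124 to 613 of the 659. Of the 6, miR-200a-5p and miR-141-3p passed only through the MV4-11 libraries, with at most 9 and 7 counts per library in Molm-14. Neither entered the edgeR fit on the Molm-14 libraries alone. The most abundant arm in each group was miR-200c-3p, followed by miR-200b-3p and miR-200a-3p. The least abundant were miR-141-3p and miR-200a-5p. In small RNA counts, ligation and capture differ between sequences, so the order of arms within a library is an order of counts.

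**Figure D1:**
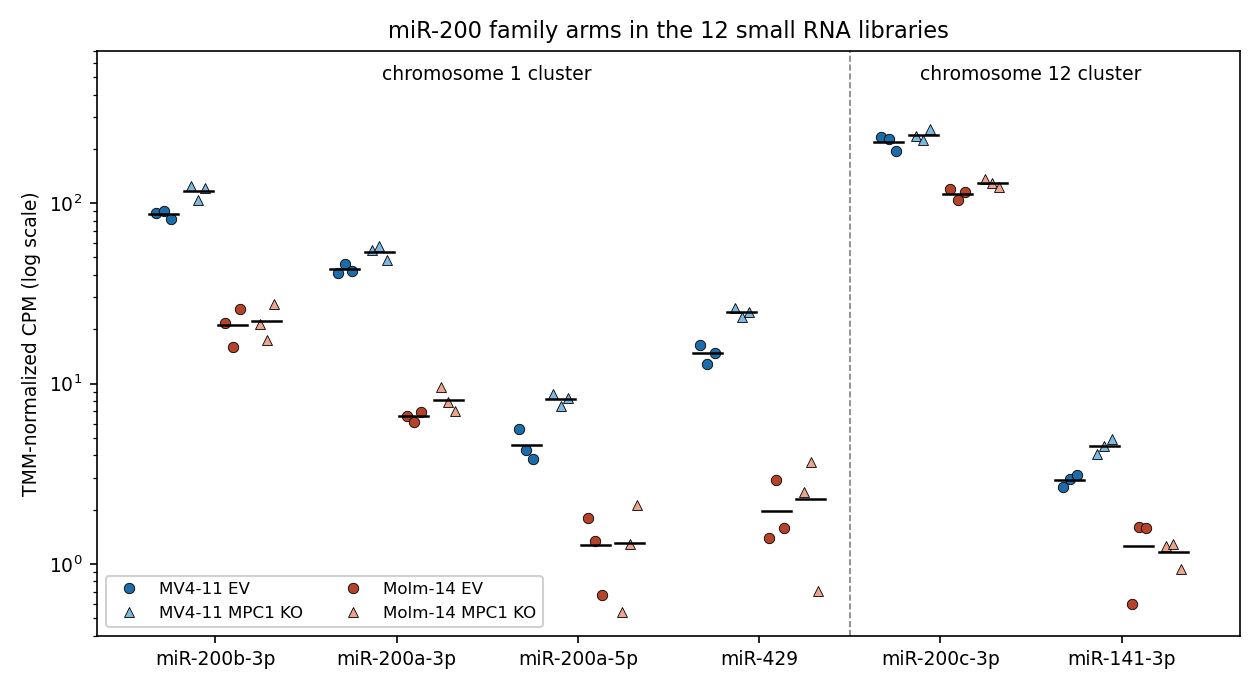
TMM-normalized CPM (log axis) of the 6 miR-200 family arms in each of the 12 libraries, with circles for EV, triangles for MPC1 KO, and a bar at the mean of the 3 libraries. For every arm the 6 MV4-11 libraries sit above the 6 Molm-14 libraries, and the group means differ most for miR-429 (7.46-fold in EV) and least for miR-200c-3p (1.93-fold in EV).

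The clearest pattern was between the cell lines. Every one of the 6 arms was lower in all Molm-14 libraries than in all MV4-11 libraries of the same genotype, and the distance was larger for the chromosome 1 arms than for the chromosome 12 arms. The values of each arm are given first, beginning with the chromosome 1 cluster.

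miR-200b-3p, the leading arm of the chromosome 1 cluster, was at 87.9, 90.4 and 81.4 CPM in MV4-11 EV and at 125, 104 and 121 CPM in MV4-11 MPC1 KO. In Molm-14 it was at 21.6, 16.0 and 25.9 CPM in EV and at 21.4, 17.4 and 27.7 CPM in MPC1 KO. The lines were far apart and the 2 genotypes of Molm-14 overlapped, while the MV4-11 MPC1 KO libraries all lay above the MV4-11 EV libraries. The mean in MV4-11 was 4.09-fold that in Molm-14 among the EV libraries and 5.26-fold among the MPC1 KO libraries.

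miR-200a-3p, which carries the AACACUG seed, was at 41.1, 46.0 and 42.1 CPM in MV4-11 EV and at 54.8, 57.9 and 48.6 CPM in MV4-11 MPC1 KO. It was at 6.59, 6.14 and 6.97 CPM in Molm-14 EV and at 9.53, 7.89 and 7.03 CPM in Molm-14 MPC1 KO. Within each line the EV libraries were all below the MPC1 KO libraries, in Molm-14 by as little as 7.03 against 6.97 CPM. MV4-11 was 6.56-fold higher in EV and 6.59-fold higher in MPC1 KO.

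miR-200a-5p, the minor strand of the same hairpin, was at 5.60, 4.30 and 3.83 CPM in MV4-11 EV and at 8.74, 7.53 and 8.30 CPM in MV4-11 MPC1 KO. In Molm-14 it was near the limit of counting, with 9, 5 and 3 counts in EV and 3, 7 and 9 counts in MPC1 KO. It made up 8.33% to 14.6% of the miR-200a counts in the MV4-11 libraries and 5.36% to 23.1% in the Molm-14 libraries, ranges that overlap, so a different use of the arms between the lines was not detectable at this depth. The Molm-14 shares rest on 28 to 56 miR-200a counts per library.

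miR-429, the third hairpin of the cluster, has the seed of miR-200b-3p and differed most between the lines. It was at 16.3, 12.9 and 14.8 CPM in MV4-11 EV and at 26.2, 23.2 and 25.1 CPM in MV4-11 MPC1 KO. It had 7, 11 and 7 counts in Molm-14 EV and 14, 20 and 3 counts in Molm-14 MPC1 KO, or 0.703 to 3.67 CPM over these 6 libraries. The means in MV4-11 were 7.46-fold those in Molm-14 in EV and 10.8-fold in MPC1 KO.

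miR-200c-3p, the leading arm of the chromosome 12 cluster and of the family, was at 232, 227 and 195 CPM in MV4-11 EV and at 236, 223 and 256 CPM in MV4-11 MPC1 KO. It was at 120.0, 104 and 115 CPM in Molm-14 EV and at 136, 129.7 and 123 CPM in Molm-14 MPC1 KO. The MV4-11 genotypes overlapped, the Molm-14 MPC1 KO libraries lay just above the Molm-14 EV libraries, and the lines were apart by 1.93-fold in EV and 1.84-fold in MPC1 KO. Its ranks among the 659 miRNAs were 125 and 124 in the EV and MPC1 KO libraries of MV4-11 and 158 and 148 in those of Molm-14.

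miR-141-3p, made from the same host transcript region as miR-200c-3p, was far scarcer. It was at 2.68, 2.94 and 3.11 CPM in MV4-11 EV and at 4.08, 4.52 and 4.94 CPM in MV4-11 MPC1 KO. In Molm-14 it had 3, 6 and 7 counts in EV and 7, 7 and 4 counts in MPC1 KO. The line difference was 2.31-fold in EV and 3.89-fold in MPC1 KO, with wide counting error on the Molm-14 side. It was 1.14% to 1.99% of the counts of the chromosome 12 cluster in MV4-11 and 0.497% to 1.52% in Molm-14. These shares overlapped between the lines in EV, and in MPC1 KO they did not, at 1.70% to 1.99% against 0.755% to 0.980%.

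The order of the group means was MV4-11 MPC1 KO, MV4-11 EV, Molm-14 MPC1 KO and Molm-14 EV from high to low for 5 arms, and for miR-141-3p the Molm-14 groups changed places. The step from MV4-11 EV to Molm-14 was the one without overlap for all 6 arms. Neighbours whose libraries overlapped were the MV4-11 genotypes for miR-200c-3p and the Molm-14 genotypes for miR-200b-3p, miR-200a-5p, miR-429 and miR-141-3p.

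In the edgeR fit across all 659 miRNAs, all 6 arms passed an adjusted p of 0.05 as lower in Molm-14, in EV and in MPC1 KO, against 28.4% of all miRNAs lower in Molm-14 EV and 29.4% lower in Molm-14 MPC1 KO. Libraries that did not overlap in the same direction were found for 29.3% of the 659 miRNAs in EV and 31.4% in MPC1 KO. The lines thus differed in a large part of the table, and since the arms were chosen with these values known, nothing is read from the count of 6. That count also includes miR-200a-5p and miR-141-3p, which passed the filter only through MV4-11. The median log2 fold change of the 6 arms, Molm-14 against MV4-11, was −1.94 in EV and −2.54 in MPC1 KO, beside medians of 0.06 and 0.05 over the table.

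For the chromosome 1 arms in EV, the log2 fold changes with SE were −2.02 ± 0.17 for miR-200b-3p, −2.70 ± 0.18 for miR-200a-3p, −1.85 ± 0.43 for miR-200a-5p and −2.94 ± 0.36 for miR-429. The chromosome 12 arms had −0.95 ± 0.11 for miR-200c-3p and −1.22 ± 0.41 for miR-141-3p. In MPC1 KO the 4 chromosome 1 arms ran from −3.36 ± 0.32 for miR-429 to −2.40 ± 0.16 for miR-200b-3p, and the chromosome 12 arms were at −0.88 ± 0.11 and −1.92 ± 0.39. Counted from the most reduced in Molm-14, the chromosome 1 arms held places 25 to 68 of 659 in EV and 24 to 38 in MPC1 KO. On chromosome 12, miR-200c-3p held places 142 and 149, and miR-141-3p held places 112 and 60, nearer the chromosome 1 arms. The highest adjusted p in these contrasts was 0.0102 (edgeR), for miR-141-3p in EV. That value rested on few counts, and it was 0.0702 without Molm-14 EV replicate 1, which held 3 counts of miR-141-3p, and 0.0523 with DESeq2.

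**Figure D2:**
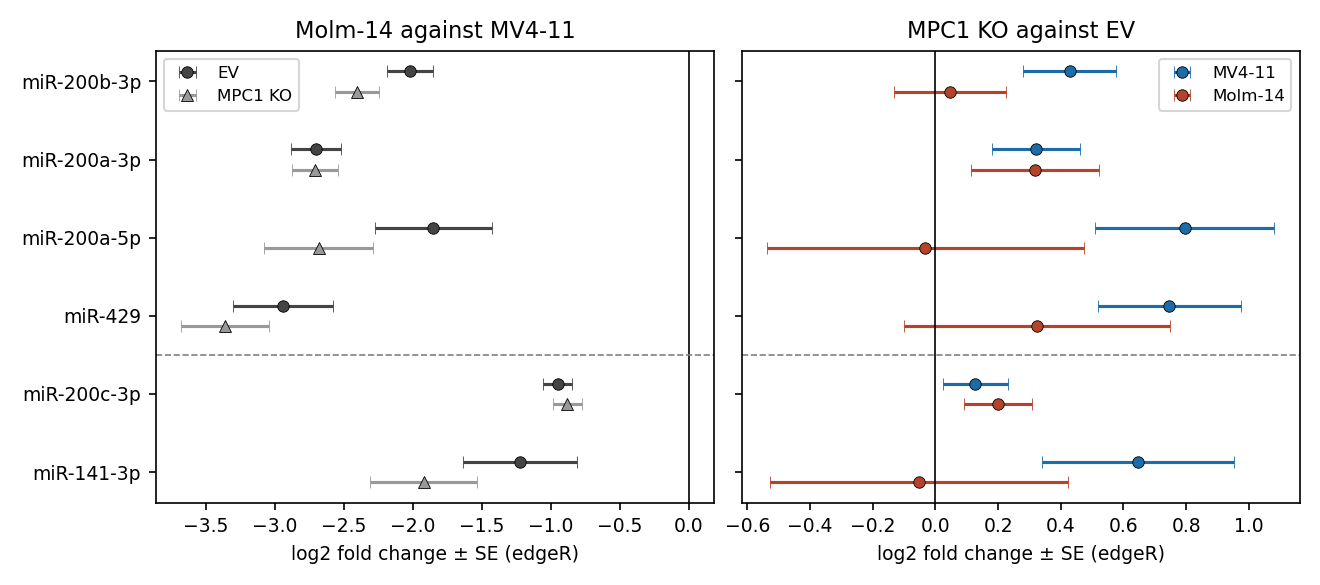
Log2 fold changes with SE from the edgeR fit for the 6 arms, Molm-14 against MV4-11 in the left panel (circles EV, triangles MPC1 KO) and MPC1 KO against EV in the right panel (blue MV4-11, red Molm-14), with the dashed line between the clusters. On the left all values are below 0, down to −3.36 for miR-429, and on the right the MV4-11 values run from 0.13 to 0.80 while those of Molm-14 run from −0.05 to 0.32.

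Summed by cluster, the chromosome 1 arms were at 148.9 ± 5.95 CPM in MV4-11 EV and 31.0 ± 4.35 CPM in Molm-14 EV, a 4.81-fold difference. The chromosome 12 arms were at 221.0 ± 19.9 and 114.2 ± 7.85 CPM in the same groups, a 1.94-fold difference. In MPC1 KO the chromosome 1 arms were at 203.3 ± 11.2 CPM in MV4-11 and 33.9 ± 3.63 in Molm-14 (5.99-fold), and the chromosome 12 arms at 243.0 ± 17.1 and 130.8 ± 6.45 (1.86-fold). Both sums were lower in Molm-14 and the chromosome 1 sum was lower by more, in each genotype. The chromosome 12 sum was nearly all miR-200c-3p, with miR-141-3p at 0.497% to 1.99% of it. The log2 fold changes of miR-141-3p, −1.22 ± 0.41 in EV and −1.92 ± 0.39 in MPC1 KO, had wide SEs. The least reduced chromosome 1 arms were at −1.85 ± 0.43 (miR-200a-5p, EV) and −2.40 ± 0.16 (miR-200b-3p, MPC1 KO). A cluster difference beyond miR-200c-3p was thus not shown.

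The share of the 6 arms' counts that came from the chromosome 1 cluster does not depend on the scaling of the libraries. It was 39.1%, 40.0% and 41.8% in the MV4-11 EV libraries and 47.2%, 45.8% and 43.7% in the MV4-11 MPC1 KO libraries. In Molm-14 it was 20.6%, 20.0% and 23.1% in EV and 19.9%, 18.8% and 23.2% in MPC1 KO. The 6 MV4-11 libraries and the 6 Molm-14 libraries did not overlap, at 39.1% to 47.2% against 18.8% to 23.2%. The shares rest on 494 to 3168 counts per library, and their exact (Clopper-Pearson) 95% intervals, the widest of which was 16.6% to 23.8% in Molm-14 EV replicate 2, cover counting error only.

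**Figure D3:**
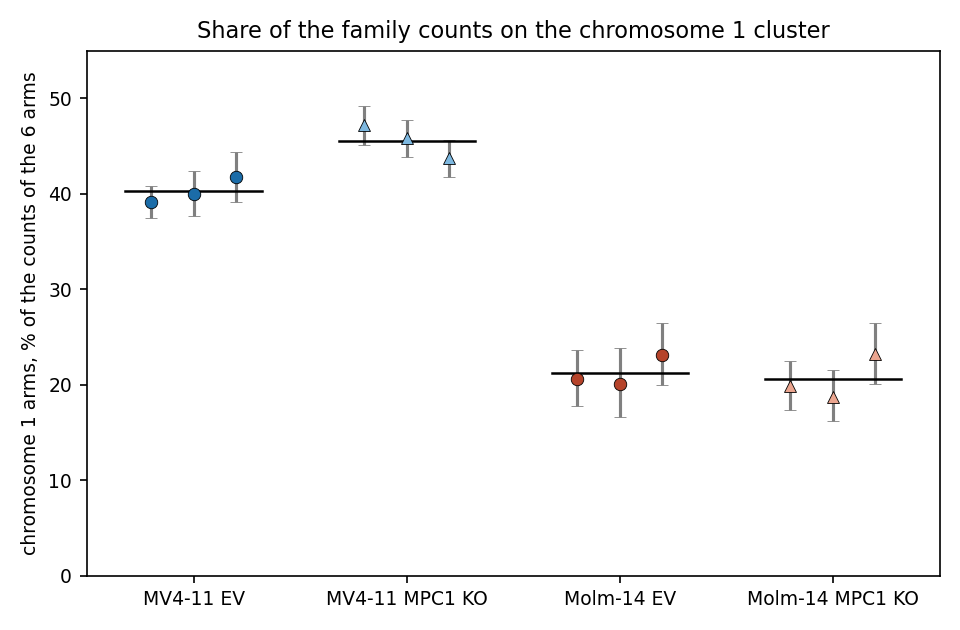
Percent of the counts of the 6 arms that came from the chromosome 1 cluster, in each library, with exact 95% binomial intervals (counting error only) and a bar at the group mean. The MV4-11 libraries lie at 39.1% to 47.2%, with MPC1 KO above EV, and the Molm-14 libraries at 18.8% to 23.2%, with the genotypes overlapping.

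The split was much the same when minor arms were left out or added. Those arms hold few counts, so such recounts could move the share little. Without miR-200a-5p the share was 38.2% to 46.1% in MV4-11 and 18.1% to 22.8% in Molm-14, and with the 3 other 5p arms added it was 39.0% to 47.3% and 19.1% to 23.1%. miR-200c-3p alone, nearly all of the counts outside the chromosome 1 cluster, took 51.9% to 60.2% of the family counts in MV4-11 and 75.8% to 80.4% in Molm-14. The seed make-up of the counts differed too, largely restating the chromosome 1 share, since miR-200a-3p is a chromosome 1 arm. The AACACUG seed, carried mostly by miR-200a-3p, made up 11.5% to 15.1% of the 3p counts in MV4-11 and 4.79% to 6.32% in Molm-14, again without overlap.

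Within the chromosome 1 cluster the proportions of the arms were less distinct between the lines. miR-200a-3p was 28.6% to 35.8% of the counts of miR-200a-3p and miR-200b-3p in MV4-11 and 20.3% to 31.2% in Molm-14. miR-429 was 12.5% to 18.3% of the counts of miR-429 and miR-200b-3p in MV4-11 and 2.48% to 17.4% in Molm-14. Both pairs of ranges, which pool the genotypes, overlap. By genotype, the miR-200a-3p share did not overlap in EV, at 31.9% to 34.1% in MV4-11 and 21.2% to 27.7% in Molm-14. In MPC1 KO it overlapped, at 28.6% to 35.8% in MV4-11 and 20.3% to 31.2% in Molm-14. The Molm-14 EV values of this share rest on 83 to 146 counts per library. The miR-429 share overlapped between the lines in each genotype.

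The comparison of MPC1 KO with EV addresses which miRNAs differ between the edited cells and their vector controls. Pyruvate entry into mitochondria is not measured by small RNA libraries. In MV4-11, 5 of the 6 arms were higher in all MPC1 KO libraries than in all EV libraries, the exception being miR-200c-3p, whose groups overlapped. MPC1 KO libraries lay wholly above EV libraries for 10.3% of the 659 miRNAs. None of the 6 arms passed an adjusted p of 0.05 in edgeR, a threshold that 3.03% of all miRNAs passed in either direction. At an unadjusted p under 0.05 there were 5 of the 6 arms and 92 of the 659 miRNAs, and DESeq2 on all libraries called 1 arm, miR-429.

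The sizes were modest. The log2 fold changes in MV4-11 were 0.43 ± 0.15 for miR-200b-3p (edgeR adjusted p = 0.115), 0.32 ± 0.14 for miR-200a-3p (0.284), 0.80 ± 0.29 for miR-200a-5p (0.129) and 0.75 ± 0.23 for miR-429 (0.0742). On chromosome 12 they were 0.13 ± 0.10 for miR-200c-3p (edgeR adjusted p = 0.657) and 0.65 ± 0.31 for miR-141-3p (0.337). The median of the 6 arms was 0.54, beside −0.0035 over the table. Summed levels in MPC1 KO were 1.37-fold those in EV for the chromosome 1 cluster and 1.10-fold for the chromosome 12 cluster.

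The miR-429 value lay near the threshold and crossed it with some choices. Its adjusted p was 0.0452 with DESeq2 on all libraries, 0.0253 with edgeR and 0.0245 with DESeq2 on the MV4-11 libraries alone, 0.0257 with library totals in place of TMM, and 0.0151 with no filter on low counts. Without Molm-14 EV replicate 2 the edgeR values were 0.0202 for miR-429 and 0.0169 for miR-200b-3p, without Molm-14 EV replicate 3 they were 0.0442 and 0.0367, and without Molm-14 MPC1 KO replicate 3 that of miR-429 was 0.0324. These Molm-14 libraries enter the MV4-11 comparison only through the shared spread, the scaling and the filter.

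The composition of the family also stood apart between the genotypes of MV4-11, given here as a description with no test. The chromosome 1 share was 40.3% ± 1.34 in EV and 45.6% ± 1.74 in MPC1 KO (SD, n = 3 each), and the libraries did not overlap, at 39.1% to 41.8% and 43.7% to 47.2%. The share of miR-200c-3p was lower by the same measure, 58.9% ± 1.45 in EV and 53.4% ± 1.66 in MPC1 KO. That largely restates the chromosome 1 share, since miR-200c-3p is nearly all of the remaining counts. Within the clusters, miR-429 was 12.5% to 15.7% of its sum with miR-200b-3p in EV and 17.1% to 18.3% in MPC1 KO, and miR-141-3p was 1.14% to 1.57% of its cluster in EV and 1.70% to 1.99% in MPC1 KO. Other proportions overlapped between the genotypes, with miR-200a-3p at 31.9% to 34.1% in EV and 28.6% to 35.8% in MPC1 KO of its sum with miR-200b-3p, and miR-200a-5p at 8.33% to 11.98% and 11.5% to 14.6% of the miR-200a counts. The seed shares of the 2 genotypes overlapped, at 11.5% to 13.4% and 11.7% to 15.1% for AACACUG.

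In Molm-14, every MPC1 KO library exceeded every EV library for 2 of the 6 arms, miR-200a-3p and miR-200c-3p, against 12.3% of the 659 miRNAs. No arm passed the edgeR threshold, which 6.83% of all miRNAs passed, and at an unadjusted p under 0.05 there were 0 of the 6 arms and 128 of the 659 miRNAs. DESeq2 also called 0 of the 6. The log2 fold changes were 0.32 ± 0.20 for miR-200a-3p (edgeR adjusted p = 0.418) and 0.20 ± 0.11 for miR-200c-3p (0.330). The other 4 arms were at 0.05 ± 0.18 (miR-200b-3p), −0.03 ± 0.51 (miR-200a-5p), 0.32 ± 0.43 (miR-429) and −0.05 ± 0.48 (miR-141-3p). With SEs of 0.43 to 0.51 on the 3 scarce arms, a change of the size measured for them in MV4-11 was not detectable in Molm-14 at this depth. The chromosome 1 share was 21.3% ± 1.65 in EV and 20.6% ± 2.30 in MPC1 KO, with overlapping libraries.

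Whether the genotype effect differs between the lines was tested by the interaction term of the same fit. No arm passed the edgeR threshold, which 6.68% of all miRNAs passed, and at an unadjusted p under 0.05 there were 0 of the 6 arms and 122 of the 659 miRNAs. DESeq2 also called 0. The effect in Molm-14 minus that in MV4-11 was −0.38 ± 0.23 on the log2 scale for miR-200b-3p (edgeR adjusted p = 0.396), −0.83 ± 0.58 for miR-200a-5p (0.472) and −0.42 ± 0.48 for miR-429 (0.703). It was 0.07 ± 0.15 for miR-200c-3p (edgeR adjusted p = 0.858), −0.70 ± 0.57 for miR-141-3p (0.562) and within 0.01 of 0, with an SE of 0.25, for miR-200a-3p. A difference between the lines in how the family responded to loss of MPC1 was therefore not shown by these libraries.

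The 3 other arms of the hairpins were at the edge of detection and did not pass the filter. miR-200b-5p had 3 to 19 counts per library in MV4-11 and 0 to 4 in Molm-14, with the 19 in MV4-11 MPC1 KO replicate 3. miR-141-5p had 3 to 13 counts in MV4-11 and 1 to 4 in Molm-14. miR-200c-5p had 0 to 3 counts in the 12 libraries, and the 3 MV4-11 MPC1 KO libraries, in which it was at 0, allow a level of up to 0.604 CPM each. The 5p arms of miR-200b and miR-200a share the seed AUCUUAC, and miR-200c-5p has GUCUUAC.
hsa-miR-200b-5p: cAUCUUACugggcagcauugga
hsa-miR-200c-5p: cGUCUUACccagcaguguuugg

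The miRNAs whose levels were most like those of the leading arm of each cluster were found by Pearson's r of log2 CPM over the 12 libraries, which form 2 separate clusters by cell line, so that these values mostly restate the line difference and carry no p. For miR-200b-3p they were miR-642a-5p (r = 0.983), miR-3615 (0.983) and miR-577 (0.980). Over the 6 libraries of each line alone, r with miR-200b-3p was 0.809 in MV4-11 and 0.506 in Molm-14 for miR-642a-5p, 0.843 and 0.414 for miR-3615, and −0.195 and 0.839 for miR-577. The mean level of miR-577 was 13.5 CPM in MV4-11 EV, but 0.142 and 0.078 CPM in Molm-14 EV and MPC1 KO, under the floor. Its r within Molm-14 therefore rests on counts near 0 and shows no likeness there. For miR-200c-3p the most alike were miR-221-3p (r = 0.993), miR-339-5p (0.983) and miR-152-3p (0.980). Here r within MV4-11 and within Molm-14 was 0.949 and 0.839 for miR-221-3p, 0.815 and 0.661 for miR-339-5p, and 0.475 and 0.791 for miR-152-3p. Each value within a line spans both genotypes, and all miRNAs of a library share its total.

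Other miRNAs tied to epithelial state did not all have the family's direction. Of 14 such miRNAs outside the family, 10 passed the filter, and in Molm-14 EV against MV4-11 EV 5 of these were lower (miR-192-5p, miR-194-5p, miR-30a-5p, miR-34a-5p and miR-34c-5p) and 5 higher (miR-96-5p, miR-182-5p, miR-183-5p, miR-101-3p and miR-215-5p) in edgeR, a contrast that called 61.9% of all miRNAs. In MPC1 KO, 3 were lower and 5 higher, where 62.4% of all miRNAs were called. The members of the list that are written first, miR-205-5p and miR-203a-3p, were too scarce to test. The summed level of the list was 1226 to 1351 CPM in MV4-11 EV and 964 to 1166 CPM in Molm-14 EV, and in MPC1 KO it was 1165 to 1242 and 1264 to 1338 CPM.

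The calls of MPC1 KO against EV on this list were 1 of the 10 in MV4-11 and 2 of the 10 in Molm-14, beside 3.03% and 6.83% of all miRNAs, and they are named here after their values were seen. In MV4-11, miR-183-5p was lower, at −0.77 ± 0.16 on the log2 scale (edgeR adjusted p = 0.00427). In Molm-14, miR-101-3p and miR-34c-5p were higher, at 0.56 ± 0.12 and 0.89 ± 0.23 (edgeR adjusted p = 0.00444 and 0.0131). The interaction term passed the threshold as higher in Molm-14 for these 3 and for miR-182-5p, 4 of the 10, beside 6.68% of all miRNAs in either direction. The median log2 fold change of the 10 was −0.14 in MV4-11 and 0.22 in Molm-14, where the medians of the 6 family arms were 0.54 and 0.12.

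Of 6 miRNAs known from mesenchymal or invasive cells, all tested, miR-21-5p, miR-155-5p, miR-221-3p and miR-222-3p were lower and miR-10b-5p and miR-9-5p higher in Molm-14 EV than in MV4-11 EV in edgeR. In MPC1 KO, 3 were lower and 2 higher. These line contrasts called 61.9% of all miRNAs in EV and 62.4% in MPC1 KO, in either direction. The single call of MPC1 KO against EV on this list, beside 3.03% of all miRNAs in MV4-11 and 6.83% in Molm-14, was miR-155-5p in Molm-14, at 0.52 ± 0.12 on the log2 scale (edgeR adjusted p = 0.00732). Their summed level was 255433 to 341395 CPM in MV4-11 and 178225 to 199291 CPM in Molm-14. Most of it was miR-21-5p, at a mean of 242957 CPM in MV4-11 EV and 152048 CPM in Molm-14 EV. The list shares miR-155-5p with the haematopoietic markers, so its call is the same one given there.

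Markers of other cell types were examined beside the line difference. The 6 epithelial cell markers are all also on the list of 14 tied to epithelial state, so they are not a separate set. They summed to 352 to 425 CPM in MV4-11 and 62.4 to 81.3 CPM in Molm-14. Most of that sum was miR-192-5p, which is also made outside epithelium and was at 335 ± 6.96 CPM in MV4-11 EV and 54.2 ± 5.13 CPM in Molm-14 EV. Of the 3 that passed the filter, 2 were lower and 1 higher in Molm-14 EV, in a contrast that called 61.9% of all miRNAs. These are the calls of miR-192-5p, miR-194-5p and miR-215-5p already given above. The fibroblast and smooth muscle markers analysed here, 3 of a list of 5, summed to 615 to 717 CPM in MV4-11 EV, 509 to 590.0 in MV4-11 MPC1 KO, 182 to 205 in Molm-14 EV and 101 to 107 in Molm-14 MPC1 KO. Most of that sum was miR-143-3p, which was lower in Molm-14 MPC1 KO than in Molm-14 EV, at −0.88 ± 0.10 on the log2 scale (edgeR adjusted p = 3.74e-06). Between the lines in EV, the contrast with 61.9% of all miRNAs called, miR-143-3p and miR-145-5p were lower and miR-199a-3p was higher in Molm-14. The level of miR-199a-3p was 1.43 ± 0.505 CPM in MV4-11 and 4.08 ± 0.951 CPM in Molm-14 (edgeR adjusted p = 0.00224). Red cell markers summed to 3.99 to 14.6 CPM and the liver marker miR-122-5p was at 4.46 to 9.58 CPM over all libraries. The part of RNA from other cells in the line difference was not tested. In bulk libraries such as these, fewer cells with a miRNA and less of it per cell cannot be told apart.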

How the data were processed

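Small RNA was sequenced from MV4-11 and Molm-14 cells with MPC1 KO or EV, 3 libraries per group. The authors deposited raw counts of reads per mature miRNA, with no normalization applied. The submitters' processing notes name GRCh38, STAR 2.5.2 and featureCounts 1.5.1 without stating which step made these counts, and the handling of reads matching several miRNAs is not given in the sources used here. Groups and replicate numbers came from the sample labels.

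From the counts, edgeR 4.0.16 (R 4.3.3) was run with filterByExpr (minimum count 10), TMM factors and a robust quasi-likelihood model with a mean per group on 659 of 1204 miRNAs, which held at least 99.97% of each library's counts. Library totals were 3870104 to 8683456, and few counts per library give wide intervals. Benjamini-Hochberg adjustment ran over the 659 miRNAs, with calls at 0.05. No 2 libraries of a group agreed within sampling noise (chi-square per degree of freedom at least 11.4). Replicate numbers were not treated as pairs.

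The family arms and the miRNA lists were chosen with earlier results of these data known. The text names all 6 arms, the other arms of their hairpins, and the 3 most correlated miRNAs per leading arm (log2 CPM with a prior count of 2). Alternatives were DESeq2 1.42.0, limma-voom (limma 3.58.1), other scalings and filters, each cell line alone, a replicate block, and leaving out each library. Sequences were RefSeq (GRCh38.p14), with 8 of the 9 arms matched, and gene positions GENCODE v44 or RefSeq.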

Additional observations from a re-analysis of the deposited data

How the results depend on the processing

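The 6 arms stayed lower in Molm-14 in both genotypes under all alternatives run, with the adjusted p of miR-141-3p in EV as the exception to the calls (0.0523 with DESeq2, 0.0702 without Molm-14 EV replicate 1). In MPC1 KO against EV in MV4-11, the count of arms called was 0 and became 1 (miR-429) with library totals only, no filter, DESeq2 on all libraries, and edgeR or DESeq2 on each cell line, and 0 to 2 when leaving out single libraries. All 6 log2 fold changes stayed above 0 there, with miR-200c-3p from 0.02 to 0.20 over the alternatives other than left-out libraries. The cause was not tested. Upper-quartile factors moved the table medians to −0.12 in this contrast, −0.12 in Molm-14 against MV4-11 in EV, and 0.18 in the interaction.

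Values near 0 that changed sign, none past the threshold, were as follows. In Molm-14 MPC1 KO against EV, miR-200a-5p was 0.036 with upper-quartile factors, 0.0053 with DESeq2 on all libraries and 0.046 on each line, and miR-141-3p was 0.017 with upper-quartile factors and 0.035 with limma-voom. Leaving out single libraries gave ranges of −0.48 to 0.38 for miR-200a-5p, −0.12 to 0.22 for miR-200b-3p, −0.41 to 0.18 for miR-141-3p and −0.14 to 0.72 for miR-429. In the interaction, miR-200a-3p was 0.18 with upper-quartile factors, 0.0055 with a filter of 1 CPM in 3 libraries and 0.024 with DESeq2, and left-out libraries gave −0.16 to 0.10 for it and −0.023 to 0.16 for miR-200c-3p.

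Same-numbered EV and MPC1 KO libraries did not deviate together (r from −0.127 to 0.116 over both lines), beside −0.139 to 0.198 for different numbers. No pairing by number was thus seen. With 3 libraries per group this cannot tell whether same-numbered libraries were prepared together. With the replicate block the count of arms called was the same in all 5 contrasts, and miR-429 in MV4-11 was at 0.75 with an adjusted p of 0.0773 (edgeR). The chromosome 1 share is taken on raw counts, so other models, scalings and filters cannot move it. When the arms were counted in the other ways given above, its group means moved by less than 1 SD, but the arms left out or added hold few counts. Depth limits miR-429, miR-200a-5p and miR-141-3p in Molm-14, at 3 to 20 counts per library.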
